A study of Mus musculus with 15 samples.

Results

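The genes described here encode the subunits of the proteasome, its activators and the chaperones that assemble it. They were taken as all non-control probe sets with 1 platform symbol starting with Psma, Psmb, Psmc, Psmd, Psme or Psmg, which gave 58 of 12422 probe sets, for 46 of 8251 genes. The samples were mouse left ventricles, collected to study how hearts enlarge under pressure overload. They comprised 3 female and 3 male hearts with the operation labelled TAC, in this field the usual short name of transverse aortic constriction, against 3 female and 6 male hearts of sham controls. The labels name no strain, age or time after the operation and do not say that each heart came from a separate animal, so p-values measure the spread between these samples only. Each array gave 1 intensity per probe set on a linear scale in arbitrary units.

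The proteasome is the large protease that degrades proteins tagged with ubiquitin. Its barrel-shaped 20S core is built from alpha subunits, which form the gate, and beta subunits, some of which carry the proteolytic sites. The 19S cap has a base, with the ATPases that unfold substrates, and a lid, which removes ubiquitin. Interferon-gamma induces alternative catalytic beta subunits and a second type of cap, PA28. In heart muscle the proteasome turns over sarcomeric and regulatory proteins, and its part in pressure overload has been studied for many years.

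By role, the 58 probe sets covered 7 genes of core alpha subunits (7 probe sets), 7 of core beta subunits (12), 9 of the base (12) and 8 of the lid (10). Another 4 genes encode inducible subunits (5 probe sets) and 9 other regulators or assembly chaperones (10). The remaining 2 symbols, Psmc3ip and Psme3ip1, met the naming rule but encode proteins known as binding partners and not parts of the particle. They form a group of their own but stay in the counts of members, where only Psme3ip1 was bright enough to be tested. Of the 58 probe sets, 52 were among the 7453 bright enough to be tested, for 43 genes. The 6 dim ones were the only probe set of Psmb9, Psmg2 and Psmc3ip and the dimmer ones of Psmb4, Psmc5 and Psme1. Levels are compared only within a probe set, since probe sets differ in how strongly they bind.

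Promoter windows were looked up for the genes whose values stand out most below, so that the sequence can be read beside the data. RefSeq windows of assembly GRCm38.p6, running from 250 bases before to 50 bases after the transcription start, matched 39 of the 46 genes. They were searched on both strands for the core of the antioxidant response element, TGACNNNGC, through which Nrf factors induce proteasome genes, for the core of the interferon-stimulated response element, which is GAAA, any 2 bases and GAAA, and for that of the gamma-activated site, TTCNNNGAA. No matches in the members' windows overlapped each other. The windows of Psma5 (chr3:108256676-108256955, plus strand), Psmd4 (chr3:95042585-95042864, minus strand), Psmd8 (chr7:29180644-29180923, minus strand) and Psme1 (chr14:55578244-55578523, plus strand) are given 5′ to 3′ for the first 280 bases, which end 30 bases after the start, with matches to the interferon pattern in capitals.
Psma5: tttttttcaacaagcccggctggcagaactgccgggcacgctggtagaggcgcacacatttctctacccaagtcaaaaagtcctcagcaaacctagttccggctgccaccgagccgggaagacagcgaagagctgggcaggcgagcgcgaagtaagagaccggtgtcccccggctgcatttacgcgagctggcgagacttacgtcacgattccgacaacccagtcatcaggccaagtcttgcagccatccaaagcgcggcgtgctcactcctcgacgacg
Psmd4: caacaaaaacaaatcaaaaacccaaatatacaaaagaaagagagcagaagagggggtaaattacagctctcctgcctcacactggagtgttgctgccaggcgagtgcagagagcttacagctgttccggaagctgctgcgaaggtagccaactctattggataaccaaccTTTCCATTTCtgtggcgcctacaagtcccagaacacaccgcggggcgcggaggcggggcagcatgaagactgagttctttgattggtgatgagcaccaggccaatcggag
Psmd8: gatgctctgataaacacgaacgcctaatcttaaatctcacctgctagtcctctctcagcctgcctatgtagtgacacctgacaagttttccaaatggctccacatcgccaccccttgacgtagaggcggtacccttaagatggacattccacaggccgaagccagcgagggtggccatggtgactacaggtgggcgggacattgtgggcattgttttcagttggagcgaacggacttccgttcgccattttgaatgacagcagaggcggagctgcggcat
Psme1: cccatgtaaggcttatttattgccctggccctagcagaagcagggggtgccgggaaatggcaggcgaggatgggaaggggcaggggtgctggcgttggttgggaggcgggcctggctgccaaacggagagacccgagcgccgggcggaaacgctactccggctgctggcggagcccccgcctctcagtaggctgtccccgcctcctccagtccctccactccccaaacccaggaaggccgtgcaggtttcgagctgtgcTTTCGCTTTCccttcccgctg
Psmd4 and Psme1 each held 1 match to the interferon pattern, read here as its reverse complement, and Psma5 and Psmd8 held none of the 3 patterns. Over all members with a window, the interferon pattern was found in 5 of 39 genes (12.8%; Psmb3, Psmd4, Psmd9, Psme1 and Psmg4), beside 3.99% of the 27025 genes in the table. The antioxidant pattern was found in 6 of 39 (15.4%; Psmb5, Psmb6, Psmc6, Psmd12, Psmd9 and Psme4), beside 14.0% of all genes, and the gamma-activated pattern in 3 of 39 (7.69%; Psmb8, Psmd2 and Psmg1), beside 9.55%. A match says only that these letters occur in the window.

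Cardiac muscle genes were bright on every array, and 7 markers summed to between 27684 and 34400 intensity units on TAC arrays and between 27960 and 33346 on sham arrays. Array medians lay between 21.3 and 26.7 units. A pair of TAC arrays stood apart. Female TAC 1 had the lowest median and the largest share of probe sets under the floor of 20 units to which values were raised before log2 was taken (48.4%), and female TAC 2 had 17.9% of all tested probe sets at their highest. Their mean correlations with the other arrays, 0.936 and 0.938 over the 7453 probe sets, were the lowest of the 15. Values without one or both are given beside the results they move most.

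The main comparison asked how the proteasome genes differed between all TAC and all sham hearts, with the change computed in each sex and then averaged, in a linear model of all 15 arrays. No proteasome probe set passed at an adjusted p under 0.05 by limma, where 0.322% of all 7453 tested probe sets did. The smallest adjusted p among the 52 members was 0.320. At an unadjusted p under 0.05 there were 4 of 52 members (7.69%), beside 7.51% of all tested probe sets, so the share was near the background. They were 3 higher with TAC, where 2.86% of all were, and 1 lower, where 4.66% were. Of the 52, 28 had a log2 change above 0 and 24 below it, beside 41.8% and 58.2% of all tested probe sets. The median log2 change was 0.01 over the members, with a range from -0.36 to 0.48, and -0.03 over all tested probe sets. Taking the brightest tested probe set of each of the 43 genes gave 24 above and 19 below 0.

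**Figure D1:**
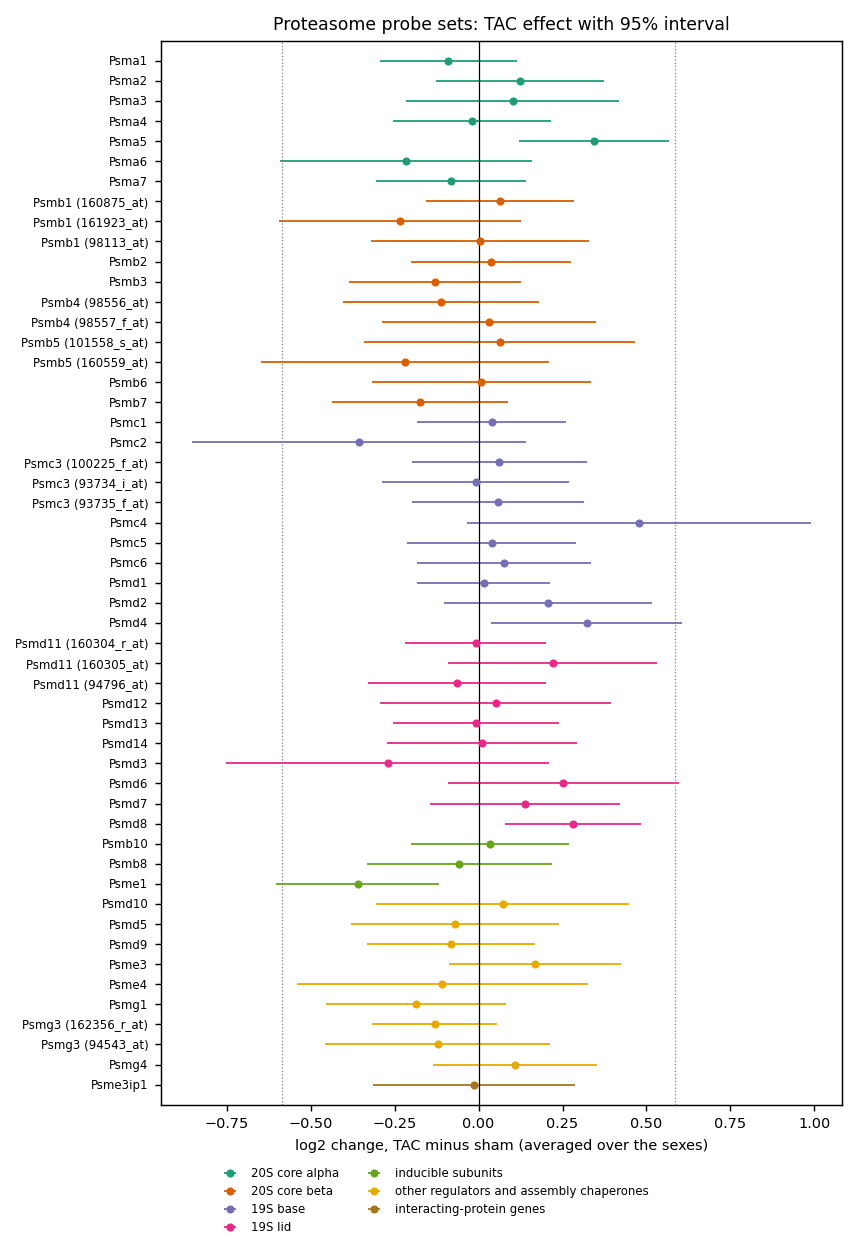
Log2 change with TAC against sham, averaged over the sexes, for the 52 tested proteasome probe sets, with 95% intervals from limma; colours mark the subunit groups and dotted lines mark a fold of 1.5 either way. Most intervals include 0, those of Psma5, Psmd4, Psmd8 and Psme1 do not, and none reaches a fold of 2.

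The intervals bounded how far the floored values of these probe sets could have moved. The 95% interval lay within 1.5-fold either way for 43 of the 52 members (82.7%), beside 86.8% of all tested probe sets. It lay within 2-fold for all 52, with outer bounds of 0.553-fold for Psmc2 and 1.99-fold for Psmc4. The median SE of a member was 0.129 on the log2 scale, the same as over all tested probe sets. These intervals are not adjusted for the number of genes. Raising values to the floor of 20 can shrink the change of dim probe sets, such as the dimmer tested one of Psmb4, below the floor on 7 arrays. For such probe sets the bound does not hold for the values before flooring.

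The members with the smallest p were Psma5, Psme1, Psmd8 and Psmd4. Psma5, Psmd4 and Psmd8 had been picked as markers of the group with earlier results of these data in view, so their direction is a description. Psma5, a core alpha subunit, had 107, 140, 116, 128, 121 and 120 intensity units on the 6 TAC arrays, against a lowest, median and highest of 76.5, 97.7 and 116 on the 9 sham arrays. All 6 TAC arrays lay above the sham median and 4 lay above the highest sham array, while the groups overlapped at the edge. The log2 change was 0.34 ± 0.11 (SE; adjusted p by limma = 0.320), a fold of 1.27 (95% interval 1.09 to 1.48).

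Psmd8, a lid subunit, had 104, 117, 93.1, 110.0, 99.0 and 84.7 units on the TAC arrays, against 73.2, 81.3 and 94.8 as the lowest, median and highest on the sham arrays. Again 4 TAC arrays lay above every sham array, and all 6 above the sham median. The log2 change was 0.28 ± 0.10 (SE; adjusted p by limma = 0.418), and the fold 1.21 (95% interval 1.06 to 1.40). Psmd4, the ubiquitin receptor of the cap also called Rpn10, is counted with the base. It had 216, 293, 232, 267, 238 and 227 units on the TAC arrays, against 131, 195 and 256 as the lowest, median and highest sham values. Here 2 TAC arrays were above every sham array. The log2 change was 0.32 ± 0.14 (SE; adjusted p by limma = 0.584), a fold of 1.25 (95% interval 1.03 to 1.52).

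Psme1 encodes the alpha subunit of PA28, the interferon-inducible activator. It had 90.4, 89.7, 88.1, 87.4, 85.3 and 113 units on the TAC arrays, against 98.9, 116 and 158 as the lowest, median and highest on the sham arrays. Of the 6 TAC arrays, 5 lay below every sham array, and male TAC 6 lay within the sham range. The log2 change was -0.36 ± 0.11 (SE; adjusted p by limma = 0.340), a fold of 0.779 (95% interval 0.659 to 0.921). Its other probe set was below 20 units on all arrays and was not tested.

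**Figure D2:**
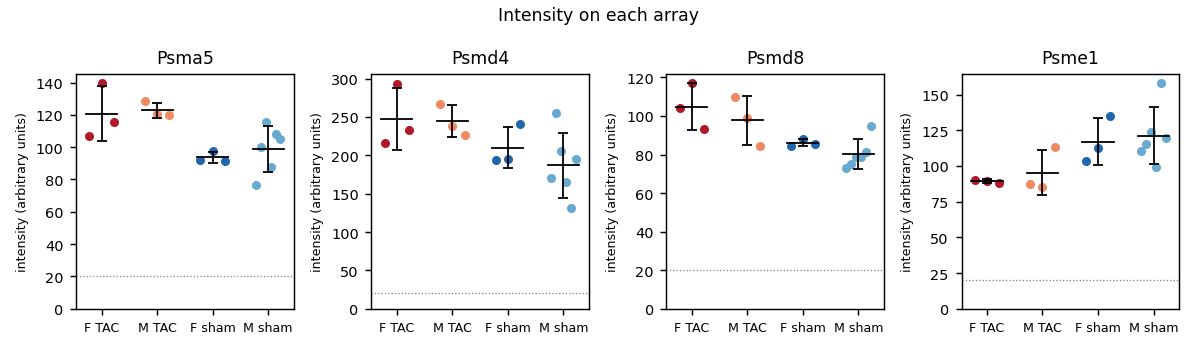
Intensity of Psma5, Psmd4, Psmd8 and Psme1 on each array, in arbitrary units, for female (F) and male (M) TAC and sham hearts; points are arrays, bars are the mean ± SD (n = 3, 3, 3 and 6) and the dotted line is the floor of 20. The TAC arrays lie towards the top of the range for Psma5, Psmd4 and Psmd8 and towards the bottom for Psme1, with overlap in each.

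By sex, Psma5 had a log2 change of 0.36 ± 0.16 in females and 0.33 ± 0.14 in males (SE), and Psmd8 had 0.28 ± 0.15 and 0.28 ± 0.13. Psme1 had -0.38 ± 0.17 in females and -0.34 ± 0.15 in males, and Psmd4 had 0.23 ± 0.20 and 0.41 ± 0.18. The difference between the sexes was -0.04 ± 0.23 for Psme1 and -0.18 ± 0.27 for Psmd4 (female minus male, SE; adjusted p by limma = 1.00 for both). Without any single array the log2 change of Psma5 lay between 0.29 and 0.38, that of Psmd8 between 0.24 and 0.33, that of Psmd4 between 0.26 and 0.37 and that of Psme1 between -0.43 and -0.31. For Psmd4 the unadjusted p by limma was above 0.05 when any one of 4 arrays was left out: it was 0.0865 without female TAC 2, 0.0680 without male TAC 4 and 0.0632 without female sham 1 or female sham 2. Without both female TAC 1 and 2 it was 0.115 for Psmd4 and also for Psmd8, whose log2 change was then 0.20. No member had all TAC arrays above or all below the sham arrays, beside 0.255% of all tested probe sets with all above and 0.161% with all below.

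Of the 7 core alpha probe sets, 3 had a log2 change above 0 and 4 below, with a median of -0.02. Besides Psma5, the values nearest to it in p were those of Psma6, with -0.22 ± 0.18, Psma2, with 0.12 ± 0.12, Psma1, with -0.09 ± 0.10, and Psma7, with -0.08 ± 0.11 (SE). Psma6 had 32.8 units on female TAC 1, against 62.3 to 94.3 on the other 14 arrays, and its log2 change was -0.0068 without that array.

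The 11 tested core beta probe sets, among them the constitutive catalytic subunits Psmb5, Psmb6 and Psmb7, had a median log2 change of 0.0043 and none reached an unadjusted p of 0.05. Psmb7, which carries the trypsin-like site, had 41.2 ± 5.8 units with TAC and 45.8 ± 7.1 in sham hearts (SD, n = 6 and 9). Psmb5 carries the chymotrypsin-like site that most proteasome inhibitors block. Its 2 probe sets had -0.22 ± 0.20 and 0.06 ± 0.19 (SE), and the first went to 0.0046 without female TAC 1. Psmb1 had 3 probe sets, of which the dimmest had -0.23 ± 0.17 and the bright ones 0.06 ± 0.10 and 0.0043 ± 0.15. The bright probe set of Psmb4 had 0.03 ± 0.15, its dimmer tested one -0.11 ± 0.14, and Psmb3 had -0.13 ± 0.12.

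In the base, 9 of 11 probe sets had a log2 change above 0, beside 41.8% of all tested probe sets. The median was 0.06, and several of these changes were small, such as 0.02 for Psmd1 and 0.04 for Psmc1. Psmc3 gave more than 1 of the 11 probe sets. By array, the median difference of the base from the sham mean was highest on female TAC 2, at 0.44. Psmc4, one of the 6 ATPases, had the highest value of all members. Its units were 43.8, 99.8, 57.7, 49.0, 42.5 and 52.4 on the TAC arrays, against 22.1, 41.7 and 60.1 as the lowest, median and highest of the sham arrays. The log2 change was 0.48 ± 0.24 (SE; adjusted p by limma = 0.696), and it was 0.31 without female TAC 2, the one TAC array above the sham range. Psmc2, another of these ATPases, had the value lowest in the base, -0.36 ± 0.24. It rested on female TAC 1, which had 22.3 units against 53.5 to 93.6 on the other 14 arrays, and was -0.06 without it. Psmd2, a scaffold subunit, had 0.21 ± 0.15 and Psmc6 had 0.08 ± 0.12 (SE).

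In the lid, 6 of 10 probe sets had a log2 change above 0, beside 41.8% of all tested probe sets, and the median was 0.03. Psmd3 had 43.2, 167, 161, 204, 200.2 and 175 units on the TAC arrays, against 147, 175 and 209 as the lowest, median and highest sham values. Female TAC 1 lay far below all other arrays. The log2 change was -0.27 ± 0.23 (SE), and 0.05 without female TAC 1. Psmd6 had 0.25 ± 0.16 (SE), and 0.14 without female sham 1. Psmd7 had 0.14 ± 0.13, with 0.23 without female TAC 1 and 0.07 without female TAC 2. Psmd11 was measured by 3 probe sets, with 0.22 ± 0.15, -0.06 ± 0.13 and, for the brightest, -0.0090 ± 0.10, a value that was above 0 when arrays were centred on their medians (0.03). Psmd14, the deubiquitinase of the lid, named for its role after its values were seen, had 38.7 ± 6.5 units with TAC and 38.9 ± 6.4 in sham hearts (SD, n = 6 and 9).

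**Figure D3:**
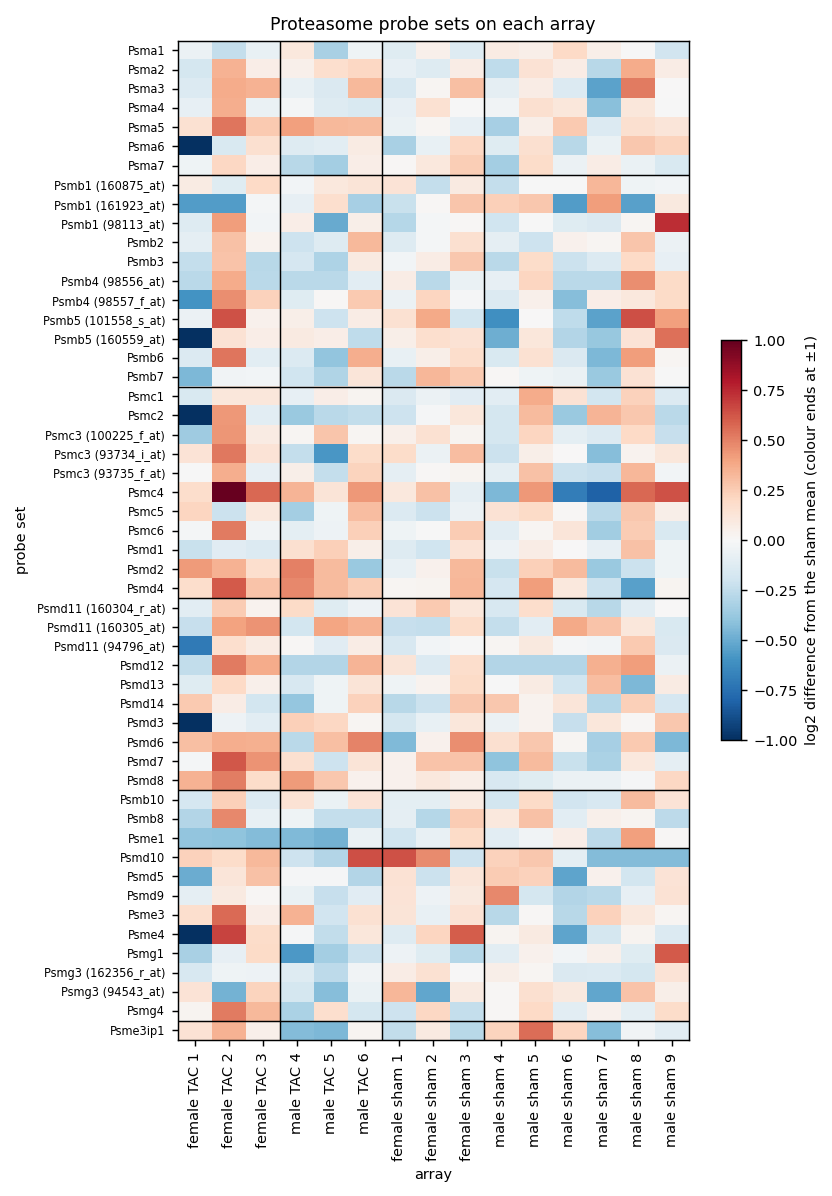
Log2 difference of each tested proteasome probe set (rows, grouped by role) from its sham mean on each of the 15 arrays (columns, TAC left of sham); colours end at ±1. Female TAC 2 is mostly red, and female TAC 1 holds the deepest blue cells, in Psma6, one Psmb5 probe set, Psmc2, Psmd3 and Psme4.

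Among the inducible catalytic subunits, Psmb10 had a log2 change of 0.03 ± 0.11 and Psmb8, also called LMP7, had -0.06 ± 0.13 (SE). Psmb8 had 51.7, 88.1, 60.2, 61.5, 53.6 and 53.6 units on the TAC arrays, against 52.02, 64.5 and 77.6 as the lowest, median and highest of the sham arrays. Female TAC 2 was the highest of all arrays and the other TAC arrays lay within or just below the sham range. Without female TAC 2 the log2 change of Psmb8 was -0.17, and without female TAC 1 it was 0.03. Psmb9, or LMP2, was too dim to be tested. Its units were 14.6, 34.2, 9.2, 21.0, 6.5 and 8.7 on the TAC arrays, against 9.9, 16.3 and 22.6 as the lowest, median and highest sham values, so that 12 of 15 arrays lay below 20 and female TAC 2 was again the highest.

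The genes of class I antigen presentation, which the inducible subunits serve, and of the interferon response were read beside them, each from its brightest tested probe set. Of 16 tested genes in this list, 11 had a log2 change above 0 and 5 below, the median was 0.13 and none was called by limma (smallest adjusted p = 0.790, none at an unadjusted p under 0.05). The smallest p values were those of Tap2, a peptide transporter subunit, with 0.22 ± 0.15, Irf7, an interferon regulatory factor, with 0.35 ± 0.24, and Ifit1, an interferon-induced gene, with 0.36 ± 0.25 (SE). Without female TAC 2, fitted on the same probe sets, Irf7 was at 0.02, Tap2 at 0.17 and Ifit1 at 0, since all its other values lie below the floor. The list's median was then -0.0019, with 7 genes above 0, 8 below and 1 at 0. In 9 of the 16 the highest value was on female TAC 2, which held the highest value of 17.9% of all tested probe sets. Ifit1 lay below the floor on every other array, so it was bright enough to be tested only through female TAC 2. Its place in this count was therefore fixed in advance. Whether Irf9 entered the same way was not tested. Chosen after their values were seen, Ifit1 had 90.9 units on female TAC 2 against 0 to 8.64 on the other 14 arrays. Irf7 had 82.7 against 14.0 to 29.5, and Irf9 52.3 against 6.94 to 24.1. Usp18, an interferon-induced protease of the ISG15 modifier, had 67.3 against 0 to 31.9. B2m, the light chain of class I molecules, had 385 units there, while male sham 8 had 394, so this gene was not high on female TAC 2 alone. Tap1 had 35.8 units on female TAC 2, within the range of the other arrays.

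**Figure D4:**
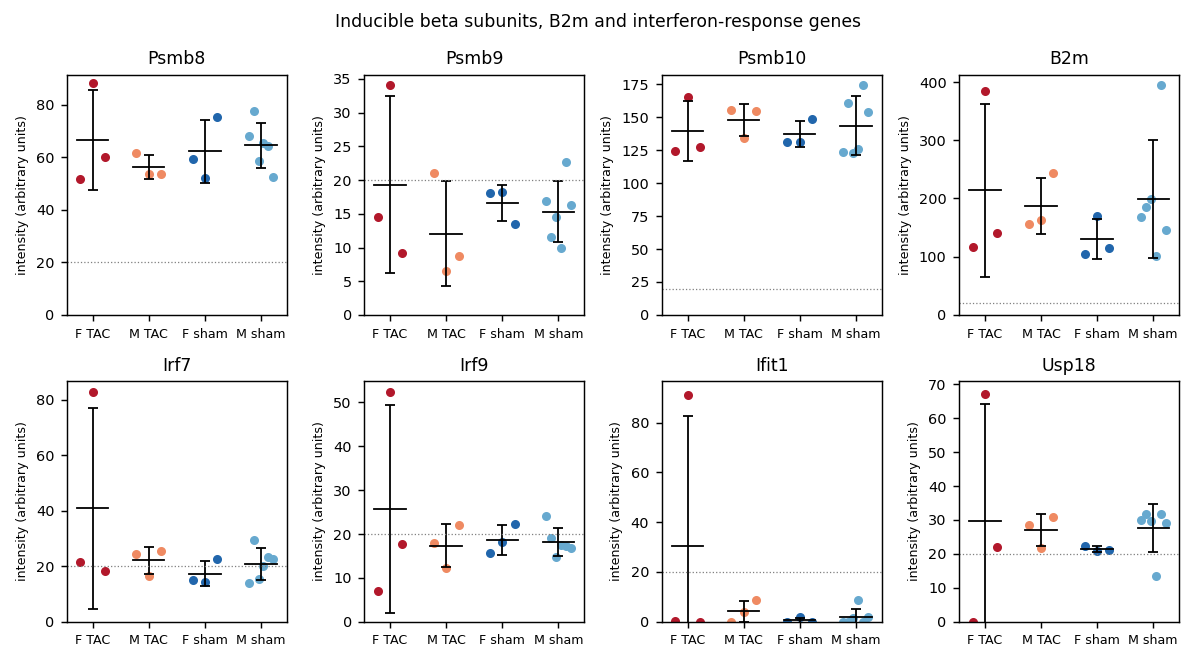
Intensity of the inducible beta subunits Psmb8, Psmb9 and Psmb10, of B2m and of the interferon-response genes Irf7, Irf9, Ifit1 and Usp18 on each array, in arbitrary units; female (F) and male (M), points are arrays, bars the mean ± SD (n = 3, 3, 3 and 6), dotted line the floor of 20. In Irf7, Irf9, Ifit1 and Usp18 a single TAC array, female TAC 2, lies above all others.

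Leukocytes are rich in inducible subunits, so their markers are given beside Psme1. The 13 markers of macrophages and leukocytes summed to between 511 and 653 units on the TAC arrays and between 556 and 894 on the sham arrays. Of the 8 tested, 1 had a log2 change above 0 and 7 below, with a median of -0.08 and no call. Among all tested probe sets 58.2% were below 0. The class II genes Cd74 and H2-Ab1 had -0.33 and -0.22, Csf1r had -0.17 and H2-Aa -0.10. Cd14, Cd79a and Lyz2 lay between -0.07 and -0.02, and Cd68 had 0.06. Ptprc, Adgre1, Itgam, Fcgr3 and Cd3e were too dim to be tested, and the brightest probe sets of Adgre1 and Itgam were at 0 on at least 1 array. In these bulk samples, fewer cells of a type and less RNA per cell cannot be told apart, and the part of leukocytes in the values of Psme1 was not tested. The 6 fibroblast markers had a median log2 change of 0.41, with 5 above 0, and none passed the adjusted threshold (smallest adjusted p by limma = 0.0585).

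The 9 tested probe sets of other regulators and assembly chaperones had a median log2 change of -0.08, 3 above 0 and 6 below. Psme3, the nuclear activator PA28-gamma, had 27.9 ± 5.0 units with TAC and 24.0 ± 3.7 in sham hearts (SD, n = 6 and 9). Psmd10, known as gankyrin and a chaperone of base assembly, had 0.07 ± 0.18 on the log2 scale, and its value was -0.07 with the replicate number as a block. The core assembly chaperones Psmg1 and Psmg4 had -0.19 ± 0.13 and 0.11 ± 0.12, and the probe sets of Psmg3 had -0.13 ± 0.09 and -0.12 ± 0.16 (SE). Psmg2 had 5.0 ± 2.8 units with TAC and 5.6 ± 3.0 in sham hearts, under the floor on all 15 arrays. Psmc3ip, a meiotic recombination factor, was under the floor on 13 arrays.

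Within females, 2 of 52 members (3.85%) had an unadjusted p under 0.05 and none was called, beside 4.59% and 0.0805% of all tested probe sets. The members of smallest p were Psma5, Psme1 and Psmg4, which had 87.3 ± 14.7 units with TAC and 67.7 ± 12.0 in sham hearts (SD, n = 3 each; log2 change 0.37 ± 0.17 SE, adjusted p by limma = 1.00). Within males, 5 of 52 (9.62%) had an unadjusted p under 0.05 and none was called, beside 6.2% and 0.134% of all. The smallest p was that of Psmg1, with 33.4 ± 4.2 units with TAC (SD, n = 3) and 46.3 ± 9.99 in sham hearts (SD, n = 6). Its log2 change was -0.45 ± 0.17 (SE; adjusted p by limma = 0.615), followed by Psma5 and Psmd4. One of the 6 male sham values of Psmg1, 66.2 units on male sham 9, lay far above the next, 44.7.

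An interaction of operation and sex was also tested, and no member was called by limma, as was no probe set at all (0% of 7453). At an unadjusted p under 0.05 there were 2 of 52 members (3.85%), beside 2.56% of all. They were Psme3ip1, with a difference of 0.68 ± 0.28 (female minus male, SE), and Psmg4, with 0.52 ± 0.23, followed by Psmg1 with 0.53 ± 0.25 (adjusted p = 1.00 for each). Leaving out Psme3ip1, which is not a part of the particle, the share was 1 of 51 (1.96%). In sham hearts, no member differed between females and males at an adjusted or an unadjusted p under 0.05 by limma, beside 0% and 4.71% of all tested probe sets. The smallest p values were those of the brightest Psmd11 probe set, with 0.25 ± 0.13 (female minus male, SE), Psmd10, an X-linked gene, with 0.45 ± 0.23, and Psmd7, with 0.31 ± 0.18 (adjusted p = 0.974 for each). Psmd10 lay under the floor on male sham 7, 8 and 9, at 13.4, 19.4 and 12.2 units. Male sham 4, 5 and 6 had 31.7, 32.6 and 25.2, and the female sham arrays 42.0, 37.4 and 23.4.

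The members also differed from array to array. Measured as the median log2 difference of the 52 members from their sham means, female TAC 2 stood at 0.35, the other TAC arrays between -0.13 and 0.08 and the sham arrays between -0.17 and 0.13. The same median over all 7453 tested probe sets was 0.08 on female TAC 2. On that array 40 of 52 members (76.9%) lay above their sham mean, beside 58.7% of all tested probe sets, and the medians by group were 0.35 for core alpha, 0.29 for core beta, 0.44 for the base, 0.30 for the lid, 0.24 for the inducible subunits and 0.12 for the other regulators and chaperones. In the regulators and chaperones female TAC 3, at 0.19, female sham 1, at 0.13, and male sham 9, at 0.14, were higher. Male sham 5 had 43 of 52 members (82.7%) above the sham mean, beside 56.4% of all tested probe sets, a larger share than on female TAC 2. Female TAC 1 had 15 of 52, beside 30.3% of all probe sets there. Of the 52 members, 19 had their highest value on female TAC 2, a larger share than the 17.9% of all tested probe sets. On female TAC 1, 12 of the 52 had their lowest value, also a larger share than the 17.7% of all tested probe sets. Without female TAC 2 the median log2 change of the members with TAC was -0.05, and without female TAC 1 it was 0.06.

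**Figure D5:**
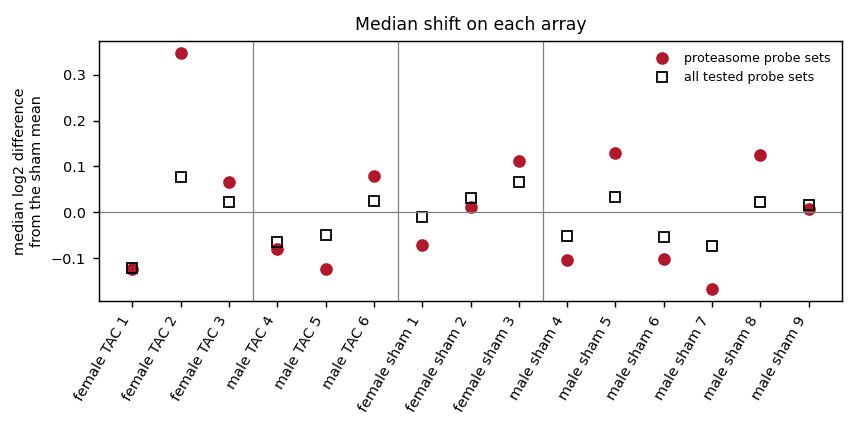
Median log2 difference from the sham mean on each array, for the 52 proteasome probe sets (filled circles) and for all 7453 tested probe sets (open squares). For the proteasome, female TAC 2, at 0.35, lies above the other 14 arrays, and the other TAC arrays lie within the range of the sham arrays.

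Genes that act with the proteasome were read from lists drawn up by role, each from its brightest tested probe set. Of 13 tested genes for proteasome-associated proteins, 6 had a log2 change above 0 and 7 below, with a median of -0.01 and no call by limma. Pomp, the chaperone that matures the core, had 114 ± 9 units with TAC and 97.0 ± 17.7 in sham hearts (SD, n = 6 and 9; log2 change 0.28 ± 0.12 SE, adjusted p = 0.611). Nfe2l1, the Nrf1 factor that induces proteasome genes when the proteasome is impaired, had 0.15 ± 0.11, and Ecpas, a proteasome adaptor, had -0.31 ± 0.25.

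Of 17 tested genes for activating and conjugating enzymes of ubiquitin or of ubiquitin-like modifiers, 10 were above and 7 below 0, with a median of 0.0029. The ubiquitin-activating enzymes Uba1 and Uba6 had no probe set with a single symbol here. The activating genes tested were Uba3 and Uba7, of ubiquitin-like modifiers. Ube2e3 had 58.8 ± 15.2 units with TAC and 78.9 ± 9.4 in sham hearts (SD, n = 6 and 9; log2 change -0.49 ± 0.14 SE, adjusted p by limma = 0.242). Ube2h had 0.22 ± 0.10 and Ube2o 0.44 ± 0.20. Of 18 tested ubiquitin ligase genes, 5 were above and 13 below 0, with a median of -0.09 and no call. Cul1, the scaffold of SCF ligases, had -0.27 ± 0.12, Nedd4 had 0.23 ± 0.12 and Btrc, a substrate receptor, -0.15 ± 0.10. The muscle ligases Trim63 (MuRF1) and Fbxo32 (atrogin-1) had no probe set with a single symbol here and were not analysed. Of 17 tested deubiquitinase genes, 11 were above and 6 below 0, with a median of 0.02 and no call; Usp9x had -0.27 ± 0.11, Usp2 -0.33 ± 0.18 and Otub1 -0.17 ± 0.13.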

How the data were processed

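Total RNA of 15 mouse left ventricles was measured on one-colour oligonucleotide arrays. The authors deposited 1 linear intensity per probe set and array. Array medians lay between 21.3 and 26.7 units, and the main fit scaled the arrays no further. The sources used here name neither software nor scaling. The 66 control probe sets were left out. Values were floored at 20, the higher of 20 and their 30th percentile (11.9), log2 was taken, and the brightest 60% were tested. A model with 4 group means was fitted with limma 3.58.1 in R 4.3.3 (lmFit, eBayes), with Benjamini-Hochberg adjustment over 7453 probe sets. Gene symbols come from the platform annotation, updated by gene number through RefSeq (GRCm38.p6). Members named with values were Psma5, Psmd4 and Psmd8, those called, the 5 of smallest p in each group and the 3 of smallest p in each other contrast, with other probe sets of these genes. Probe sets annotated to several genes or to none were left out of the members and lists. They stayed in the brightness filter, the fit, the adjustment and the shares over all tested probe sets. Changes of genes in the other lists and of the cell type markers were read from the brightest tested probe set of each gene, so other probe sets of these genes are not counted. The members and lists were chosen with earlier results of these data known. On simulated data with changes in 200 of 7453 probe sets, the averaged effect recovered 55.2% of log2 changes of 0.5, 97% of those of 1 and 100% of those of 2. The simulated noise was independent between probe sets, with no shift shared by an array and no array far apart. No change below 0.5 was simulated, and the largest member change was 0.48, so these shares do not give the recovery for the members. The number of arrays limits the precision, and no scan dates or batches were given.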

Additional observations from a re-analysis of the deposited data

Results flagged for a closer look

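Of the 31 named probe sets, each looked at in the 6 male sham hearts, 2 had a sample far from the others, a number that chance alone can give, since about 1 in 20 groups is marked without cause. Psmd8 had 94.8 units on male sham 9, against 73.2 to 81.3 on the other 5 male sham arrays. Psmg1 had 66.2 units on the same array, against 39.7 to 44.7. No named probe set differed in its TAC effect between the sexes at the adjusted threshold.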

How the results depend on the processing

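No proteasome member was called in any of the 5 contrasts under any alternative: 0 of 129 recomputed counts were above 0. Settings tried were quantiles, median centring, the 10th percentile as floor, an offset of 20, no filter, the top 40%, trended robust eBayes, array weights, models with no or an additive sex term, fits restricted to the groups of a contrast, a replicate block, each of 15 arrays left out and, chosen after seeing the data, female TAC 1 and 2 both left out. The smallest adjusted p was 0.0544, for Psme1 with array weights, where its log2 change was -0.42. With the replicate number as a block, the count of called members was 0 in each contrast and the median log2 change of the members was -0.00262. There Psmd4 had 0.231 both averaged (adjusted p by limma = 0.703) and in males (adjusted p by limma = 0.862), and its unadjusted p no longer lay under 0.05. Sham and TAC hearts share numbers 1 to 6. The correlation of same-numbered deviations was 0.117 to 0.270 for the 3 female numbers and -0.0828 to 0.0641 in males. No differently numbered hearts were set beside these values, so they cannot decide whether the numbers mark pairs. The main model did not pair them. The median log2 change of the members lay between -0.03 and 0.05 over the other alternatives and between -0.05 and 0.06 without 1 array. Of 1133 values of named members, 33 changed sign, none of them past the threshold. Psme3ip1 was at 0.0246 with quantiles and 0.0231 with centring, and Psmd11 at 0.0287 with centring, 0.0332 without a sex term and 0.00529 in the additive model. Array weights gave -0.0371 for Psmc6 and -0.0333 for Psmb10, and the replicate block -0.0697 for Psmd10. Without both female TAC arrays, Psma6 was at 0.0709, Psmd3 at 0.0361, Psmg3 at 0.00857, Psmc6 at -0.0205 and Psmb10 at -0.0229. Without 1 array, the range was -0.341 to 0.00464 for Psmb5, -0.0161 to 0.124 for Psmc6, -0.0565 to 0.0332 for Psmd11, -0.438 to 0.0493 for Psmd3, -0.0315 to 0.0703 for Psmb10, -0.167 to 0.0253 for Psmb8, -0.0766 to 0.157 for Psmd10 and -0.0926 to 0.0436 for Psme3ip1. In fits also chosen after seeing the data, without female TAC 2 the median over the interferon list was -0.00185, and without both female TAC arrays Irf7 was at -0.00417. The cause of these changes of sign was not tested.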
